A study of Mus musculus with 6 samples.

Results

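Manganese transport and Golgi pump genes were followed by their symbols in the count tables of a mouse macrophage line grown on zinc alloys: Slc11a1, Slc11a2, Atp13a1, Atp2c1 and Tmem165. All 5 were found among the 54532 genes of the tables and all 5 passed the filter on low counts. The rule that lists them takes gene symbols and no measured value, but the genes were chosen with earlier results of these data known. RAW 264.7 cells, a leukaemia virus-transformed macrophage line from BALB/c mice, were cultured for 3 days on metal coated with calcium phosphate (CaP), the coating that all groups shared. The metals were zinc (CaP Zn), a zinc-manganese alloy (CaP Zn0.8Mn) and one that also held lithium (CaP Zn0.8Mn0.1Li), with 2 polyadenylated RNA libraries for each. No library of cells on plastic or on uncoated metal was used here, so every comparison is between coated alloys, and both comparisons with CaP Zn share its 2 libraries. BALB/c mice carry the susceptible allele of Slc11a1, whose protein does not function in the phagosome, so its mRNA level in this line is no measure of transport.

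Manganese enters cells through transporters that also carry iron and zinc, and macrophages withhold it, with iron, from microbes in the phagosome. Inside the cell it is loaded into the Golgi apparatus, where many glycosyltransferases of the GT-A fold need it to add sugars to proteins and lipids. The Golgi pump that brings it in also lowers the cytosolic level, and loss of Golgi manganese transport causes glycosylation defects.

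Library totals lay between 14944070 and 17709290 counts, and 18334 to 18820 genes were detected in each. One library stood apart: CaP Zn0.8Mn replicate 1 held 7.88% of its counts in mitochondrial genes, against 1.82% to 2.15% in the other 5. Its 672 genes at more than 2-fold the mean of the others and 1103 more than 2-fold below it set it apart across the transcriptome. Chi-square per gene between replicates, which is about 1 where only counting noise separates them, was 271 for CaP Zn0.8Mn, 14.0 for CaP Zn and 6.45 for CaP Zn0.8Mn0.1Li. All 10 macrophage markers had at least 10 counts in every library, and their summed level was lowest in the library that stood apart, within a range of 11043 to 16540 CPM, counts scaled to library size. Lyz2, the marker with the most counts, had 88701 there and 170769 to 226205 elsewhere. The markers went both ways in that library. Lyz2, Cd68, Itgam and Spi1 had their lowest counts there, and Csf1r, Mpeg1, Cd14, Adgre1, Fcgr1 and Ptprc their highest. The summed level of fibroblast and osteoblast markers was 8.77 to 17.1 CPM. Of these, Alpl, Col1a1, Col1a2, Col3a1, Dcn and Lum had no more than 3 counts, while Runx2 had 108 to 283. Neutrophil markers summed to 0.268 to 2.12 CPM, with S100a8 at 1 to 36 counts. B and T cell markers summed to 3.48 to 5.92 CPM, with Lck at 50 to 93 counts. Osteoclast markers, which macrophages of this line can acquire, summed to 121 to 205 CPM, with Calcr at no more than 3 counts. The differences from CaP Zn are therefore given for each gene with and without CaP Zn0.8Mn replicate 1. Leaving mitochondrial genes out of the tests between alloys still gave 0 genes at an adjusted p under 0.05. The log2 difference of CaP Zn0.8Mn from CaP Zn was 0.14 for Slc11a1 and -0.62 for Slc11a2, both with and without them. Beyond that, what part the mitochondrial share has in the differences was not tested.

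Slc11a1 encodes NRAMP1, a proton-coupled divalent metal transporter in the membrane of late endosomes and phagosomes of macrophages. The gene lies on chromosome 1 at 74375195 to 74386062 on the plus strand (GRCm38 positions, ENSMUSG00000026177). Its promoter window is shown because Slc11a1 is the member whose level differed most between alloys in the libraries that did not stand apart. RefSeq (GRCm38.p6) places 250 bases before and 50 after its start at chr1:74374953-74375252, plus strand, printed 5′ to 3′.
Slc11a1 promoter: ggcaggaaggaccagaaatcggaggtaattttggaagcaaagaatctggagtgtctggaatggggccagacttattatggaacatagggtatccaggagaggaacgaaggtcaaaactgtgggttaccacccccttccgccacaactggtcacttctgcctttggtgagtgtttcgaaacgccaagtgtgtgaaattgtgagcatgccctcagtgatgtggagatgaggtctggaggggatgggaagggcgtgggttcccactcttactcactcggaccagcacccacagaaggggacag
This window holds 7 CpG dinucleotides, and 47.9% of the 32851 promoters in the table hold fewer. None of 9 motifs searched on both strands was found in these letters, among them the metal response element cores TGCGCNC and TGCACNC, which 15.4% and 12.6% of promoters hold, the PU.1 core GAGGAAG (13.6%) and the AP-1 site TGANTCA (7.81%). The absence says only that these letters are not in this window.

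Slc11a1 had the highest level per length of the 5 genes in every library. Its deposited FPKM, a read count corrected for gene length and library size, was 27.4 and 31.6 in the CaP Zn pair, 30.2 and 34.5 in the CaP Zn0.8Mn pair, and 34.7 and 37.1 in the CaP Zn0.8Mn0.1Li pair. Both libraries on the lithium alloy were thus above both on CaP Zn, while the CaP Zn0.8Mn libraries lay between and overlapped CaP Zn. In CPM, scaled with TMM factors, the level was 110 ± 10.5 for CaP Zn, 122 ± 9.56 for the manganese alloy and 134 ± 6.66 for the alloy with lithium (SD, n = 2 libraries each). In bulk RNA, fewer cells expressing a gene and less RNA per cell cannot be told apart.

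**Figure D1:**
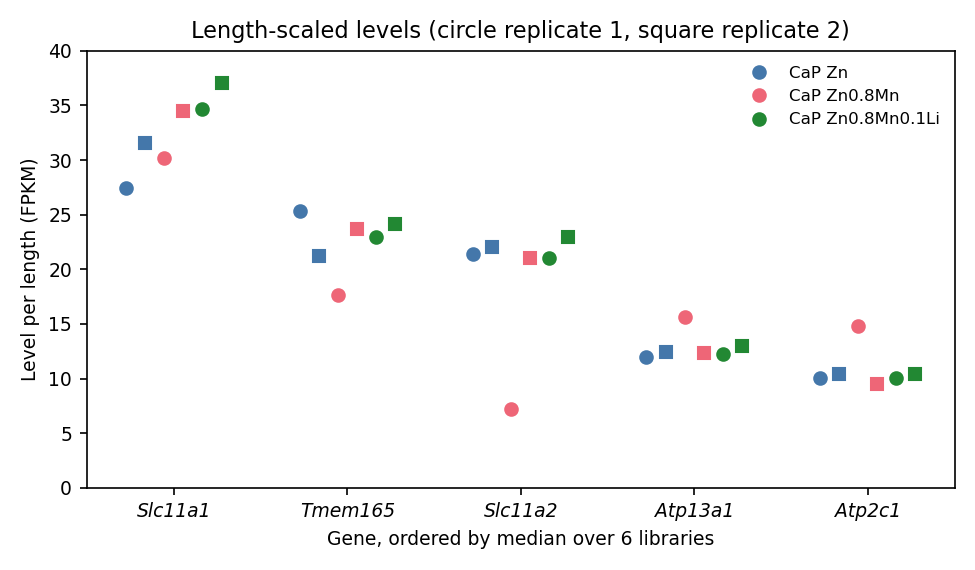
Deposited FPKM of the 5 genes in each of the 6 libraries, by alloy. Slc11a1 is highest in all 6 libraries, and CaP Zn0.8Mn replicate 1 has the lowest Slc11a2 (7.25) and the highest Atp2c1 (14.8).

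Slc11a1 did not pass the test between any pair of alloys with all 6 libraries. On CaP Zn0.8Mn0.1Li it was higher than on CaP Zn by 0.28 on the log2 scale (SE 0.18, 95% interval -0.16 to 0.72, edgeR quasi-likelihood adjusted p = 1.00). It was the single member of the 5 whose libraries did not overlap in that comparison, where 16.7% of the 13156 genes tested had first-group libraries wholly higher. CaP Zn0.8Mn against CaP Zn gave 0.14 (interval -0.30 to 0.58, edgeR adjusted p = 0.776). That value rested on which CaP Zn0.8Mn library was used: it was 0.22 without replicate 1 (interval -0.0038 to 0.44, edgeR adjusted p = 0.969) and 0.020 without replicate 2. No gene passed an adjusted p of 0.05 in any comparison of the 6 libraries (0%), against 207 at an unadjusted p under 0.05 (1.57%) between CaP Zn0.8Mn and CaP Zn and 29 (0.220%) between the lithium alloy and CaP Zn. DESeq2 called 1 gene in the first of these.

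The comparison of the lithium alloy with CaP Zn holds no CaP Zn0.8Mn library. Leaving out CaP Zn0.8Mn replicate 1 could thus barely move its difference in any of the 5 genes. It narrowed the intervals through the spread that all groups share. Slc11a1 was then 1.21-fold higher on CaP Zn0.8Mn0.1Li than on CaP Zn (log2 0.28, SE 0.087, interval 0.096 to 0.46). The unadjusted p was 0.00495 in edgeR's quasi-likelihood fit across all genes, but the adjusted p was 0.603, and 5.16% of the genes had an unadjusted p under 0.05. Its p ranked 111 of 13627 genes. The mean of both manganese alloys was higher than CaP Zn by 0.25 (interval 0.077 to 0.42, edgeR adjusted p = 0.739), with libraries that did not overlap, as for 10.8% of genes in that direction. One CaP Zn library bears on the size: without CaP Zn replicate 1 the lithium difference was 0.18, and without CaP Zn replicate 2 it was 0.38. The 2 CaP Zn libraries differed in Slc11a1 beyond counting noise, with a chi-square of 17.2.

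**Figure D2:**
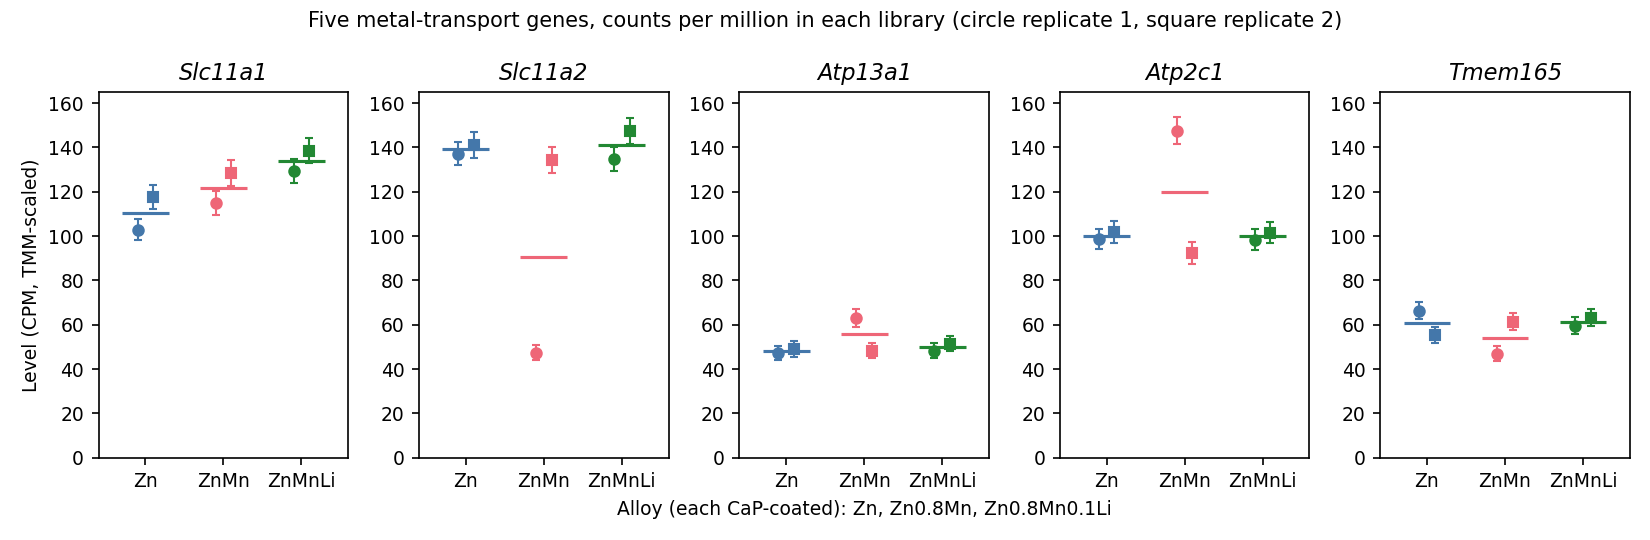
TMM-scaled CPM of each gene by library, grouped by alloy, with group means. Slc11a1 runs from 103 to 139 CPM, and the wide CaP Zn0.8Mn spread of Slc11a2 and Atp2c1 comes from replicate 1.

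Slc11a2 encodes DMT1, which carries ferrous iron and manganese across the plasma membrane and out of endosomes. The gene is on chromosome 15 at 100387898 to 100425072 on the minus strand (ENSMUSG00000023030). Some of its transcripts end in a 3′ untranslated region with an iron-responsive element, a hairpin bound by iron regulatory proteins, and others do not. In GENCODE M21, 1 of its 6 protein-coding transcripts, Slc11a2-205, holds such a loop 40 bases after the last coding base. It is shown because gene-level counts add up both kinds of transcript. The capitals mark the loop, and 4 of the 5 flanking base pairs can form.
Slc11a2 loop: cagagcCAGTGTgtttc
A loop of this form was found somewhere in a protein-coding transcript of 1763 of 21877 genes (8.06%), and in the 3′ untranslated region of 0 transcripts of the other 4 members.

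Slc11a2 was even across 5 libraries and low in one. Its FPKM was 21.4 and 22.0 in the CaP Zn pair, 7.25 and 21.1 in the CaP Zn0.8Mn pair, and 21.1 and 23.0 in the CaP Zn0.8Mn0.1Li pair. The value of 7.25 belongs to CaP Zn0.8Mn replicate 1, where 716 reads were counted against 2077 to 2552 in the others. There the gene was at 0.341 times the mean of the other 5, and 9.07% of the 7300 genes of at least 20 CPM lay as far or farther from theirs. Over the other 5 libraries its highest CPM was 1.10 times its lowest, a ratio that 85.3% of those genes exceeded.

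With all 6 libraries, CaP Zn0.8Mn against CaP Zn gave a log2 difference of -0.62 for Slc11a2 (SE 0.47, interval -1.80 to 0.57, edgeR adjusted p = 0.773). Both CaP Zn0.8Mn libraries were below both CaP Zn libraries, as for 12.8% of genes. Without the library that stood apart the difference was -0.052 (interval -0.26 to 0.16). With CaP Zn0.8Mn replicate 2 left out instead, so that the alloy rested on replicate 1, it was -1.60 (edgeR adjusted p = 5.05e-09), and 8197 of 14130 genes passed. That fit assumes that the lone library varies as the other groups do. On CaP Zn0.8Mn0.1Li against CaP Zn the gene differed by 0.020 with all libraries and by 0.019 without CaP Zn0.8Mn replicate 1 (interval -0.15 to 0.19).

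Atp13a1 encodes a P5A-type ATPase of the endoplasmic reticulum (ER) that removes mistargeted membrane proteins; it was earlier linked to manganese and is not a Golgi pump. The gene is on chromosome 8 at 69791163 to 69807749 on the plus strand (ENSMUSG00000031862). Its promoter, at chr8:69790913-69791212 on the plus strand, is shown beside that of Slc11a1 for its pair of ETS sites, CCGGAAGT in capitals. At least 1 such site is held by 3.89% of promoters.
Atp13a1 promoter: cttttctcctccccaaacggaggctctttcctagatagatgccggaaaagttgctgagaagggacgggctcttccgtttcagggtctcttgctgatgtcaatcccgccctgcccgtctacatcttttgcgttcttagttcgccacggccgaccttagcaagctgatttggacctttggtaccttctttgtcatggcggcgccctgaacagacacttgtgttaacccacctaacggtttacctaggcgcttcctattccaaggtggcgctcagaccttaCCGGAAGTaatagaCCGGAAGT
Atp13a1 was the fourth gene by median FPKM, at 12.4. Its FPKM was 12.0 and 12.5 in the CaP Zn pair, 15.7 and 12.3 in the CaP Zn0.8Mn pair, and 12.3 and 13.0 in the CaP Zn0.8Mn0.1Li pair. CaP Zn0.8Mn replicate 1 was above all others, at 1.29 times their mean, a distance that 65.5% of genes reached. CaP Zn0.8Mn against CaP Zn gave a log2 difference of 0.21 (interval -0.29 to 0.70, edgeR adjusted p = 0.773), which was 0.0037 without that library (interval -0.24 to 0.25). The lithium alloy differed from CaP Zn by 0.048, and by 0.047 without that library (interval -0.15 to 0.25).

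Atp2c1 encodes SPCA1, the pump that loads calcium and manganese into the Golgi. It is on chromosome 9 at 105403539 to 105527319 on the minus strand (ENSMUSG00000032570), with 11 protein-coding transcripts. RefSeq gives it 2 start sites in the table. The one at chr9:105495084-105495383, minus strand, is shown because it holds 36 CpG, more than in 93.8% of promoters, and 2 matches to the metal response element core TGCGCNC, in capitals on either strand. The other window holds 8 CpG and no match to that core.
Atp2c1 promoter: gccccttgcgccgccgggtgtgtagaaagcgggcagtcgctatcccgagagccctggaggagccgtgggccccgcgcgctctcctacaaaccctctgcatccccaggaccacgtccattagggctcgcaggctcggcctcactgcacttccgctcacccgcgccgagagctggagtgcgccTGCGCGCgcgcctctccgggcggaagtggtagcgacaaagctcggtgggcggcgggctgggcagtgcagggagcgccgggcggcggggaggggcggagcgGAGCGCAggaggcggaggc
Which start these cells used cannot be read from counts per gene. Atp2c1 shares 1837 exon bases with Aste1 on the opposite strand, and whether the counting used strand is not given in the sources used here. Aste1 had 77 to 118 counts against 1428 to 2231 for Atp2c1.

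Atp2c1 had the lowest median FPKM of the 5 genes, 10.2. Its FPKM was 10.0 and 10.4 in the CaP Zn pair, 14.8 and 9.49 in the CaP Zn0.8Mn pair, and 10.1 and 10.4 in the CaP Zn0.8Mn0.1Li pair. Again a single library, CaP Zn0.8Mn replicate 1, was high, at 1.50 times the mean of the others, and 48.2% of genes lay as far from theirs. The log2 difference of CaP Zn0.8Mn from CaP Zn was 0.26 with all libraries (interval -0.38 to 0.90, edgeR adjusted p = 0.773) and -0.12 without that one (interval -0.33 to 0.095), so its sign turned. CaP Zn0.8Mn0.1Li against CaP Zn gave -0.0035, and -0.0047 without that library (interval -0.18 to 0.17).

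Tmem165 encodes a Golgi membrane protein that exchanges manganese or calcium for protons and is needed for normal glycosylation. It is on chromosome 5 at 76183880 to 76209245 on the plus strand (ENSMUSG00000029234). Its FPKM was 25.4 and 21.2 in the CaP Zn pair, 17.7 and 23.7 in the CaP Zn0.8Mn pair, and 22.9 and 24.2 in the CaP Zn0.8Mn0.1Li pair. CaP Zn0.8Mn replicate 1 was lowest, at 0.768 times the mean of the others, and the CaP Zn libraries differed beyond counting noise (chi-square 17.0). The log2 difference of CaP Zn0.8Mn from CaP Zn was -0.17 (interval -0.69 to 0.36, edgeR adjusted p = 0.776) and 0.013 without that library (interval -0.25 to 0.27). The lithium alloy differed from CaP Zn by 0.014, and by 0.011 without that library (interval -0.20 to 0.22).

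In order of median FPKM the genes were Slc11a1 (33.0), Tmem165 (23.3), Slc11a2 (21.2), Atp13a1 (12.4) and Atp2c1 (10.2). Tmem165 and Slc11a2 overlapped, and Slc11a2 was the higher of the pair in CaP Zn replicate 2. FPKM depends on the gene length in the table, which joins the exons of all transcripts, from 2588 bases for Tmem165 to 9694 for Atp2c1.

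**Figure D3:**
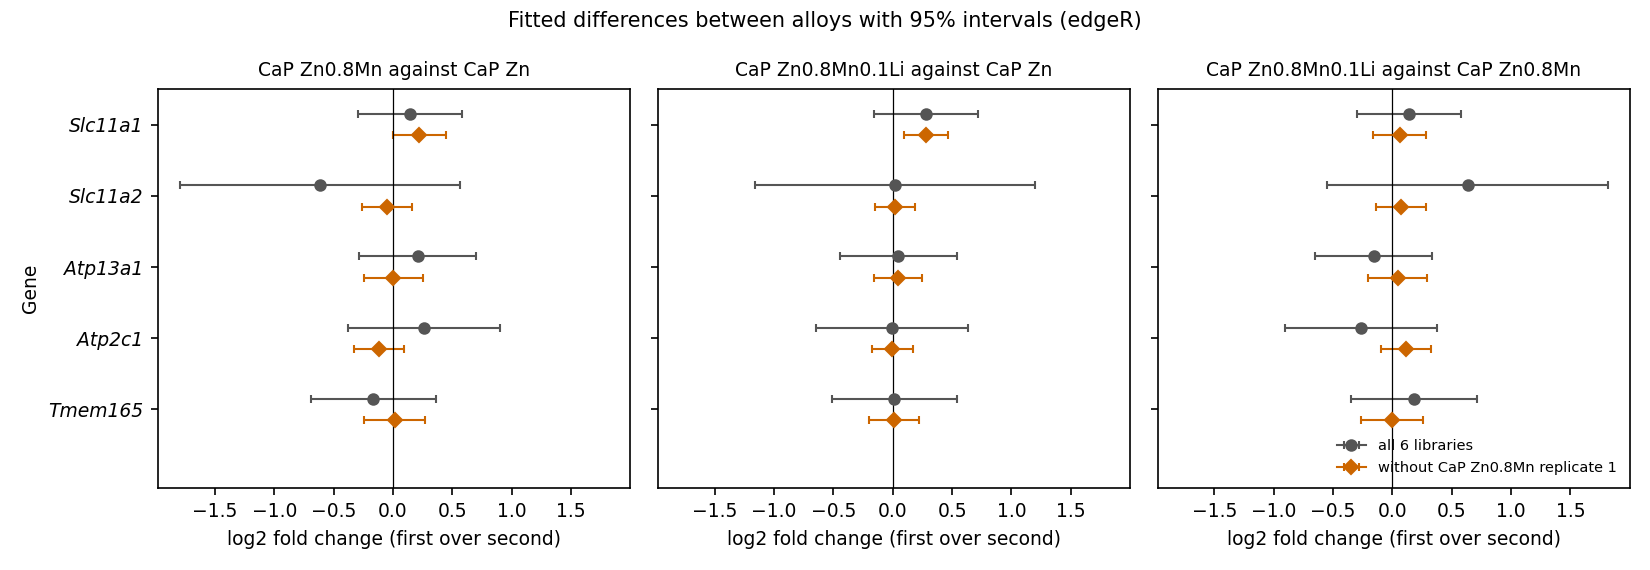
Fitted log2 fold changes with 95% intervals for each gene in the 3 comparisons, with all 6 libraries and without CaP Zn0.8Mn replicate 1. Of the intervals drawn, that of Slc11a1 in the middle panel without that library (0.096 to 0.46) excludes 0.

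Between the lithium alloy and CaP Zn0.8Mn no member passed with all libraries (edgeR adjusted p 0.680 to 0.707). Slc11a1 and Slc11a2 had both lithium-alloy libraries above both CaP Zn0.8Mn libraries, as did 17.1% of genes. Their log2 differences were 0.14 and 0.64, and 0.060 and 0.070 without CaP Zn0.8Mn replicate 1. Atp13a1, Atp2c1 and Tmem165 gave -0.16, -0.26 and 0.18, and 0.044, 0.11 and -0.0023 without that library. With CaP Zn0.8Mn replicate 2 left out instead, all 5 genes passed in this comparison, as did 8489 of the 14130 genes tested. The log2 differences were then 0.26 for Slc11a1, 1.61 for Slc11a2, -0.30 for Atp13a1, -0.52 for Atp2c1 and 0.42 for Tmem165, with edgeR adjusted p from 3.73e-09 to 0.0486. In the same setting against CaP Zn, where 8197 of 14130 genes passed, Atp13a1 gave 0.35 (edgeR adjusted p = 0.0172), Atp2c1 0.52 (0.000218) and Tmem165 -0.41 (0.0119). Most genes thus passed once the alloy rested on replicate 1, and the calls are not particular to the members.

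Counted over the 5 genes, few stood past either mark. With all libraries none had an unadjusted p under 0.05 in edgeR's fit across all genes, where the share of genes that did was 2.40% between the manganese alloys, 0.312% for their mean against CaP Zn and 1.06% for the F test over the 3 alloys. No member's libraries separated for that mean, as did 3.54% of genes upward and 3.25% downward. Without CaP Zn0.8Mn replicate 1, 0 of 5 passed an adjusted p of 0.05, against 0.0147% of genes for CaP Zn0.8Mn with CaP Zn, 0.00734% for the lithium alloy with CaP Zn, 0.0294% between the manganese alloys and 0.0294% for their mean. Slc11a1 alone of the 5 had an unadjusted p under 0.05 there, in the lithium comparison, for the mean of both alloys (5.26% of genes) and in the F test (4.26%, with 0.0367% at an adjusted p under 0.05). In the remaining pair of comparisons none did, against 4.52% of genes for CaP Zn0.8Mn with CaP Zn and 3.21% between the manganese alloys. The single CaP Zn0.8Mn library left was above both CaP Zn libraries in Slc11a1, as for 32.1% of genes, and below them in Slc11a2 and Atp2c1, as for 32.8%. The lithium-alloy libraries were both above it in Slc11a1, Slc11a2 and Atp2c1, as for 33.5% of genes, and below it in none of the 5, against 34.1%. Separation was thus common among all genes once an alloy rested on 1 library.

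The other genes of the pathway came from 7 lists, and none of their members passed the test in either direction, as for all genes (0%). Of 16 other manganese and iron transporters and P5 pumps, 9 were tested. On CaP Zn0.8Mn against CaP Zn, 8 were higher and 1 lower, with a median log2 difference of 0.61 against 0.0048 over all genes. Without CaP Zn0.8Mn replicate 1 the split was 4 and 5 and the median -0.017, and on the lithium alloy it was 3 and 6 with a median of -0.038. Atp13a2, a lysosomal P5B pump that exports polyamines, was at 158 and 156 CPM in the CaP Zn pair, 380 and 149 in the CaP Zn0.8Mn pair, and 150 and 156 in the CaP Zn0.8Mn0.1Li pair. Trpm7, a channel for divalent cations, reached 185 CPM in CaP Zn0.8Mn replicate 1, with 77.4 to 89.6 in the other libraries. The transferrin receptor Tfrc was at 132 CPM there and at 262 to 307 elsewhere. Slc30a10, the exporter of manganese at the cell surface, had 0 counts in all 6 libraries, which allows up to 0.201 CPM in the shallowest.

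The list drawn up as GT-A glycosyltransferases, Mgat5 included, had 27 genes tested, and the fold of each was not checked. Of these, 15 were higher and 12 lower on CaP Zn0.8Mn than on CaP Zn (median 0.098). Without CaP Zn0.8Mn replicate 1 the split was 12 and 15 (median -0.031). On the lithium alloy it was 14 and 13 (median 0.012). Mgat2, which starts a branch of complex N-glycans, reached 79.9 CPM in CaP Zn0.8Mn replicate 1, with 14.2 to 22.2 in the others. Galnt10, which starts O-glycans, was at 16.5 CPM there and 3.14 to 5.56 elsewhere. Of 9 enzymes that use manganese, 4 were higher and 5 lower on CaP Zn0.8Mn (median -0.18), but 6 and 3 without replicate 1 (median 0.0078). Sod2, the mitochondrial manganese superoxide dismutase, was at 150 and 167 CPM in the CaP Zn pair, 74.5 and 184 in the CaP Zn0.8Mn pair, and 174 and 173 in the CaP Zn0.8Mn0.1Li pair. The lithium alloy was thus above CaP Zn in both libraries, as for 16.7% of all genes, with a log2 difference of 0.13 (edgeR adjusted p = 1.00).

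Of 25 Golgi trafficking and acidification genes, 15 were higher on CaP Zn0.8Mn than on CaP Zn, but 6 without replicate 1. Tmem199, an assembly factor of the proton pump, was at 21.7 CPM in that library and 75.1 to 81.5 elsewhere, and the mannosidase Man2a1 was at 116 there and 32.6 to 47.4 elsewhere. Of 20 genes for inserting or removing ER membrane proteins, 17 were lower on CaP Zn0.8Mn (median -0.19), but 6 without replicate 1. Sec61g, a subunit of the translocon, was at 18.4 CPM in that library and 108 to 127 elsewhere. In both lists the direction of most members turned with that one library.

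Among 8 iron-responsive genes, 5 were higher and 3 lower on CaP Zn0.8Mn than on CaP Zn (median 0.0505). Without CaP Zn0.8Mn replicate 1 the split was 4 and 4 (median 0.0292). On the lithium alloy it was 7 and 1 (median 0.037), where all genes together divided almost evenly into higher and lower. Ferritin heavy chain Fth1 was at 5772 and 7763 CPM in the CaP Zn pair, 2370 and 9043 in the CaP Zn0.8Mn pair, and 8758 and 9110 in the CaP Zn0.8Mn0.1Li pair. Both lithium-alloy libraries were above both CaP Zn libraries, again as for 16.7% of genes, with a log2 difference of 0.40 (edgeR adjusted p = 1.00, and 0.954 without CaP Zn0.8Mn replicate 1). Ftl1, the light chain, differed by 0.37 in the same comparison. Of 9 transcription factors named in the literature for Slc11a1, 7 were lower on CaP Zn0.8Mn than on CaP Zn, but 2 without replicate 1. Myc was at 0.991 CPM in that library and at 12.4 to 18.1 elsewhere.

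**Figure D4:**
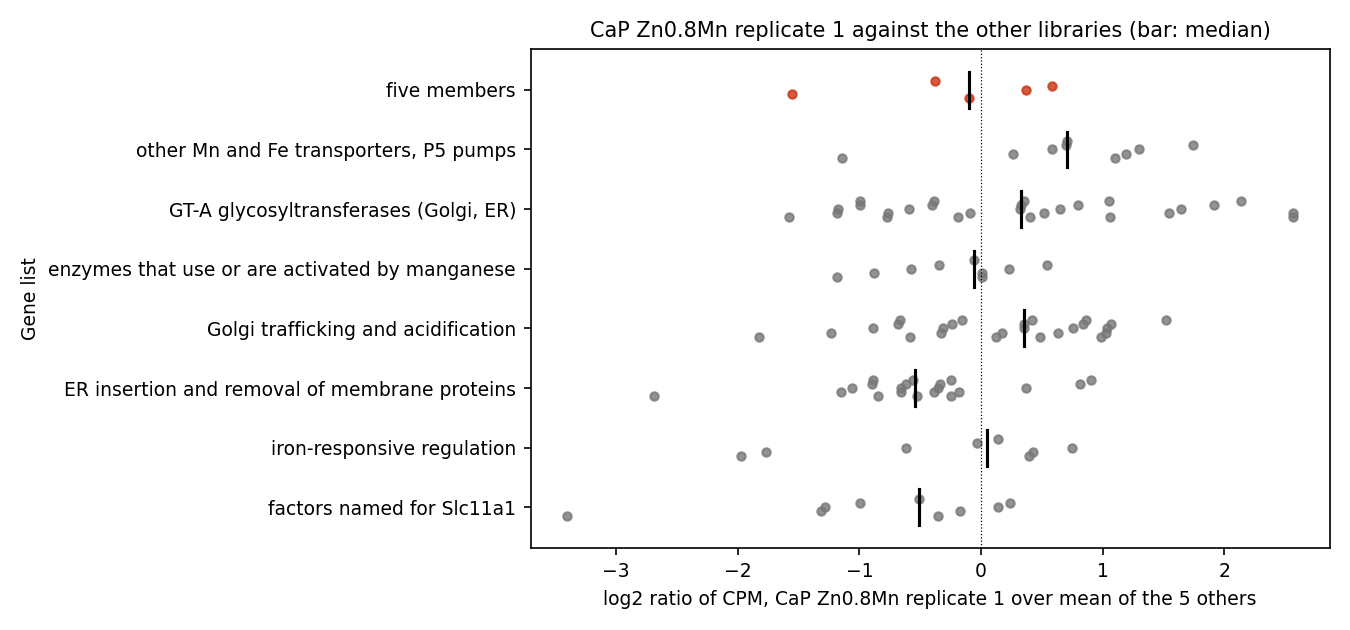
Log2 ratio of CPM in CaP Zn0.8Mn replicate 1 over the mean of the other 5 libraries, for the 5 genes and each list, with 0.5 CPM added for list genes (bar, median). The medians run from -0.55 for ER insertion and removal to 0.70 for the other transporters.

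The genes whose centred log2 CPM lay nearest to each member over the 6 libraries were found among 9764 genes of at least 5 CPM, by root-mean-square difference. For Slc11a1 they were Ulbp1 (0.0416), Rnf121 (0.0522) and Brwd3 (0.0529), and 86 genes lay within 0.1. Slc11a2 was nearest to Snrnp70 (0.0262), Wbp2 (0.0321) and Vps72 (0.0376), with 160 within 0.1. Atp13a1, with 880 genes within 0.1, was nearest to Trmt2b, Gpr89 and Laptm4a. Atp2c1, with 661, was nearest to Dhx36, Med12 and Hectd3. Tmem165, with 430, was nearest to Ssb, Odf2 and Bbip1. These are descriptions over 6 libraries, 1 of which stands apart.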

How the data were processed

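Per the labels' protocols, TRIzol lysates gave polyadenylated RNA for Illumina TruSeq libraries. The authors deposited whole-number read counts per gene and, in a separate table, FPKM values, which are counts divided by gene length and library size (0.976 to 1.06 times the count total). How reads were aligned and counted is not given in the sources used here. For the build, the submitters' processing notes name mm9, but 53585 of 54495 identifiers matched to GENCODE M21 (98.3%) have GRCm38 starts and ends, so positions are given as GRCm38. The tables held 0 columns of other samples.

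Groups came from the treatment labels and replicate numbers from the titles. The labels do not say whether the libraries of an alloy are from separate cultures. P-values thus reflect library-to-library spread alone, and that spread may be technical. A floor of 3 counts is 0.169 to 0.201 CPM and covers counting error only, since reads carry no molecular identifiers.

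Counts were tested with edgeR 4.0.16 in R 4.3.3 (robust quasi-likelihood, TMM, filterByExpr, group means, Benjamini-Hochberg over all genes): 13156 genes and 3 residual degrees of freedom with all libraries, 13627 and 2 without CaP Zn0.8Mn replicate 1. The procedure was tested on simulated data for CaP Zn0.8Mn against CaP Zn with all 6 libraries. Of 100 genes changed by 1 on the log2 scale it recovered 96%, with 19 false calls. That share is no measure of power in the real libraries, where the CaP Zn0.8Mn replicates differed by a chi-square of 271 per gene. There Mgat2 differed by 1.34 on the log2 scale in this comparison without passing (edgeR adjusted p = 0.773). DESeq2 1.42.0, limma 3.58.1, other scalings and filters, FPKM with pseudocounts, left-out libraries, left-out mitochondrial genes and a replicate block were alternatives. Members and lists were chosen with earlier results of these data known. Named genes are the members, per list and pairwise comparison the 2 genes of at least 5 CPM with the largest difference, and the 3 genes nearest each member; the text gives some of those from the lists. Sequences are from RefSeq (GRCm38.p6) and GENCODE M21; 4 of 5 members matched a promoter.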

Additional observations from a re-analysis of the deposited data

How the results depend on the processing

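Each of the 5 genes had at least 711 counts in every library. What limits the number of calls was not tested. Slc11a1 kept its sign in every setting run. The counts of called genes, 0 with all libraries, were as follows in the order CaP Zn0.8Mn with CaP Zn, CaP Zn0.8Mn0.1Li with CaP Zn, CaP Zn0.8Mn0.1Li with CaP Zn0.8Mn, and the mean of both manganese alloys with CaP Zn. DESeq2 called 1, 0, 3 and 1 genes, and no filter on low counts gave 1 in the first and 1 in the third. Leaving out 1 library gave 0 to 8197, 0 to 1, 0 to 8489 and 0 to 5354, and 0 to 7944 for the F test over the alloys, with the highest counts, other than the second, when CaP Zn0.8Mn rested on its replicate 1.

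The next settings were chosen after seeing the data, on the 5 libraries without CaP Zn0.8Mn replicate 1. DESeq2 called 5, 12, 3 and 20 genes there, where it gave no adjusted p to 10039 of 13627 genes in the second comparison and 12681 in the fourth. Over all 13627 genes, limma-voom called 5, 4, 4 and 9, edgeR with RLE size factors 2, 1, 4 and 4, and edgeR with library totals 2, 0, 4 and 2. With CaP Zn replicate 1 left out as well, 46, 44, 43 and 51 genes passed. The cause was not tested.

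The signs of these differences turned under the settings named. For Atp2c1, CaP Zn0.8Mn with CaP Zn gave -0.12 by DESeq2, limma-voom and RLE on 5 libraries, -0.18 by library totals and -0.14 on 4 libraries; the mean of both alloys gave -0.059, -0.061, -0.059, -0.11 and -0.083; and CaP Zn0.8Mn0.1Li with CaP Zn0.8Mn gave 0.11, 0.11, 0.11, 0.14 and 0.11. With a mean count of at least 100, Atp2c1 on CaP Zn0.8Mn0.1Li with CaP Zn was 0.00035. For Atp13a1, library totals on 5 libraries gave -0.061 for CaP Zn0.8Mn with CaP Zn and -0.027 for the mean of both alloys, and 4 libraries gave -0.019 for the first; CaP Zn0.8Mn0.1Li with CaP Zn0.8Mn gave 0.043 by DESeq2, limma-voom and RLE, 0.067 by totals and 0.041 on 4 libraries. For Slc11a2, CaP Zn0.8Mn0.1Li with CaP Zn was -0.022 by library totals on 6 and on 5 libraries and -0.00066 on 4. For Tmem165, CaP Zn0.8Mn with CaP Zn gave 0.016 by DESeq2, limma-voom and RLE on 5 libraries and 0.16 on 4; the mean of both alloys gave 0.015, 0.014, 0.014 and 0.15; CaP Zn0.8Mn0.1Li with CaP Zn0.8Mn gave -0.0030, -0.0030, -0.0030 and -0.0047; and with CaP Zn it gave -0.033 by totals on 6 libraries and -0.034 on 5.

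Leaving out 1 library at a time gave the following ranges where a sign turned. Atp13a1 ran from -0.0017 to 0.092 for CaP Zn0.8Mn0.1Li with CaP Zn and from -0.30 to 0.044 with CaP Zn0.8Mn. Atp2c1 ran from -0.12 to 0.52 for CaP Zn0.8Mn with CaP Zn, -0.033 to 0.018 for CaP Zn0.8Mn0.1Li with CaP Zn, -0.52 to 0.11 with CaP Zn0.8Mn, and -0.061 to 0.26 for the mean of both alloys. Slc11a2 ran from -0.051 to 0.082 for CaP Zn0.8Mn0.1Li with CaP Zn. Tmem165 ran from -0.41 to 0.013, -0.11 to 0.15, -0.0023 to 0.42 and -0.21 to 0.052 in the 4 comparisons.

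Whether replicate numbers pair the libraries was not settled. Deviations from group means correlated at 0.291 between CaP Zn and CaP Zn0.8Mn and -0.193 between CaP Zn and CaP Zn0.8Mn0.1Li. Between the manganese alloys the value was -0.0982. The values with CaP Zn0.8Mn cannot decide it, since its deviations hold the library that stood apart. The value of -0.193 does not hold that library and is negative. It rests on a single difference per alloy, so it does not settle the question either. With the replicate block 0 genes were called in each comparison (132, 21, 213 and 28 at an unadjusted p under 0.05), and Slc11a1 differed by 0.14, 0.28, 0.14 and 0.21 in the 4 comparisons.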
